A study of Mus musculus with 115 samples.

Results

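Ovarian stroma cells were chosen by their own counts from libraries labelled as somatic. A cell was kept with at least 1000 genes and 3000 unique molecular identifiers (UMIs, 1 per captured transcript molecule), and counted as stroma when at least 4 of the 6 genes Dcn, Lum, Mgp, Mfap4, Mfap5 and Serping1 stood at 1 or more per 10000 UMIs. The rule found 392 stroma cells among 7787 kept cells. Of these, 261 of 2501 kept cells were wild type, 95 of 2682 were ob/ob and 36 of 2604 were db/db. Levels of the 6 genes below describe the choice and test nothing.

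The stroma is the connective tissue of the ovary, in which follicles, corpora lutea and vessels are embedded. Its fibroblast-like cells make fibrillar collagens and the small proteoglycans that space collagen fibres. They border on the theca, the steroid-making layer around a follicle, on smooth muscle and pericytes, and on the epithelium that covers the ovary. Granulosa cells, by contrast, line the inside of the follicle and make inhibin, anti-Müllerian hormone and estrogen.

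The series asks how obesity alters signals between cells in the growing follicle. Cells were released with collagenase, picked by hand under a stereomicroscope and tagged with 1 of 96 cell barcodes, and polyA RNA was counted per cell. Wild type libraries, 31 in number, carried the strain label C57BL/6-129Sv. The 30 db/db libraries, from mice with the leptin receptor gene Lepr disrupted, and the 31 ob/ob libraries, from mice with the leptin gene Lep disrupted, carried the label C57BL/6. Both mutant lines become obese. The labels give no age, diet or animal for a library, so a p-value here compares libraries and not animals, and part of their spread may be technical. Wild type libraries were numbered 1 to 32 and 40 to 55 and mutant libraries from 82 on. Genotype, strain and library order therefore cannot be told apart in a comparison with wild type. Stroma cells carried 95 different barcodes, 89 of them used in more than 1 library.

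Among wild type stroma cells the median level of Dcn (decorin, a proteoglycan that binds collagen) was 14.7 per 10000 UMIs, and 94.3% of cells reached 1 per 10000. Mgp (matrix Gla protein, an inhibitor of calcification) had a median of 10.3 and reached the level in 99.2% of cells. Lum (lumican, another small proteoglycan) had a median of 6.48, Mfap4 (a microfibril-associated protein) of 3.38, and Serping1 (the C1 inhibitor of complement) of 3.20. Mfap5 (a second microfibril protein) was at the level in 31.4% of the cells, with a median of 0.0763. At the edge of the rule, the wild type cells with exactly 4 genes had a median Lum of 6.11 and Serping1 of 1.82, and the 185 cells just outside it, with exactly 3, had 1.72 and 0.0556. The median Dcn of those 2 sets was 13.98 and 8.52, so the rule cut through a range of cells with no gap at its edge.

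The stroma cells of the 3 genotypes differed in level within the rule. Median Dcn was 4.25 per 10000 in ob/ob and 6.32 in db/db stroma cells. Median Lum was 2.78 and 2.14, and median Mgp 4.66 and 5.79. All 6 values lay below the wild type medians. Median Mfap4 was 0.759 and 2.04, also lower, and median Serping1 1.92 and 3.12, the latter near the wild type value. The Mfap5 medians, all under 1 per 10000, went the other way, with 0.132 and 0.675 against 0.0763 in wild type. Mfap5 was at the level in 35.8% and 50% of the cells against 31.4%. Its upper quartile was 1.65 in ob/ob, below the 2.80 of wild type, and 5.01 in db/db, so Mfap5 was not higher throughout in ob/ob.

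The label of stroma was checked against markers of the other ovarian cell types. Of 261 wild type stroma cells, 37.2% also held at least 3 granulosa markers at 1 or more per 10000, against 72.6% of the other kept cells. Smooth muscle and pericyte markers met that count in 29.9% of the stroma cells against 3.62% of the others, theca markers in 9.20% against 19.4%, and luteal markers in 13.4% against 26.7%. Endothelial markers met it in 0.766%, and macrophage markers in 0 of the 261 cells. At least 1 of the 8 lists of other cell types met it in 60.9% of wild type stroma cells and in 91.6% of the 95 ob/ob stroma cells. In ob/ob the count was 85.3% for granulosa, 64.2% for smooth muscle and pericyte, 61.1% for theca and 53.7% for luteal markers. The theca and luteal lists share genes, Hsd3b1 and Cyp11a1 among them, so their shares are not separate counts. The shares depend on depth, and a cell that holds markers of another type and a mixed pick were not told apart. The ob/ob cells are therefore called stroma by the rule, and not as pure cells of that type.

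Comparisons between stroma cells and the remaining kept cells used the 12 wild type libraries with at least 10 stroma cells. Their 203 stroma cells had a median of 116581 UMIs and 3464 genes, and the 828 others a median of 88564.5 UMIs and 2804 genes. Counts were summed per library and side and scaled to CPM, so that each side of a library has the same total. Since the rule made this contrast, its values are a description with no test. Besides the 6 genes of the rule, 24 of 5382 genes at 20 CPM or more in stroma (0.446%) were at least 2-fold higher in every one of the 12 libraries. At least 2-fold lower values in every library were found for 53 of 5494 genes (0.965%).

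Collagen and proteoglycan genes were among the genes that marked the stroma, with 2 of 7 fibrillar collagens and 1 of 7 small proteoglycans at least 2-fold higher in every library. Col1a1, a chain of type I collagen, stood at 546 to 1801 CPM in the stroma cells, with a median of 1055, and at 72.2 to 277, with a median of 130.4, in the other cells. The ranges did not overlap, and the median log2 ratio was 3.04 ± 0.66 (SD, n = 12). Bgn (biglycan, a small proteoglycan) ran from 328 to 771 CPM against 32.3 to 166, a median log2 ratio of 2.77 ± 0.85. Col5a1, which starts collagen fibrils, had a median ratio of 2.49, Col6a1, of the beaded filaments around cells, of 1.97, and Nid1, a basement membrane linker, of 2.17. Col1a2 (median ratio 2.27) and Col3a1 (2.09) were higher in 12 of 12 libraries but fell short of 2-fold in at least 1. As lists, the 7 measured fibrillar collagens had a median log2 ratio of 2.27, the 7 small proteoglycans of 2.43 and the 15 basement membrane genes of 0.50. The median over all 13103 genes at 1 CPM or more was -0.23.

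Secreted factors and enzymes formed a second set. Bdnf (brain-derived neurotrophic factor, a growth factor) stood at 73.7 to 249.5 CPM in stroma against 0.214 to 53.5 in the other cells, with a median log2 ratio of 4.11 ± 1.73, the highest outside the rule. It reached 1 per 10000 in 26.1% of wild type stroma cells. Has1 (hyaluronan synthase) had a median ratio of 2.72 and stood at 56.7 to 535 CPM in stroma, against 5.66 to 94.8 elsewhere. Adamts4, a protease that cuts large proteoglycans, had a median ratio of 2.61, Ecm1 of 2.78, and Dkk3, of the Dickkopf family, of 2.55. Fstl1 (follistatin-like), Igfbp6 (a binding protein of insulin-like growth factors), Pcsk5 (a proprotein convertase) and Mdk (midkine, a heparin-binding growth factor) had ratios of 2.38, 2.35, 1.99 and 1.83. Igfbp6 ran from 391 to 743 CPM in stroma and from 68.1 to 246 in the others, so its ranges did not overlap.

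Among regulators, Tcf21, a transcription factor of mesenchymal cells, had a median log2 ratio of 2.85, with 37.1 to 491 CPM in stroma and 6.52 to 52.4 elsewhere. Its ranges overlapped between libraries although each library alone was over 2-fold. It reached 1 per 10000 in 41.4% of wild type stroma cells. Col1a1 did so in 90.8%, Acta2 (smooth muscle actin) in 60.5%, the growth factor receptor gene Pdgfra in 41.8% and Cd34 in 35.2%, so the cells shared collagen more widely than any of these. Pi16 and Dpp4, which mark fibroblasts of the adventitia in other organs, were at that level in 0.383% and 0 of the 261 cells. Cdh11, a mesenchymal cadherin, Cygb (cytoglobin), Lgals1 (galectin) and Ifitm3 (an interferon-induced membrane protein) were further marked genes, with ratios of 2.30, 2.47, 2.06 and 2.12. Lgals1 was the most abundant of them in CPM per gene, at 2457 to 5196 in stroma.

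Some genes with high median ratios missed the mark. Sparcl1 (2.88), Mmp2, a gelatinase (3.15), and Gsn (gelsolin, 2.96) were higher in 12 of 12 libraries. Acta2 (2.17) and Pdgfra (2.65) were higher in only 11 of 12. Hedgehog signalling passes from granulosa to stroma and theca cells. The ligand gene Dhh was lower in stroma, with a median ratio of -3.90, and the target gene Gli1 higher in 10 of 12 libraries, with 2.11. Ptch1, the hedgehog receptor, was higher in 8 of 12, with 0.49.

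Of the 53 genes lower in stroma, 3 were on the granulosa list, 2 on the theca list, 2 on the surface epithelium list and 1 on the steroidogenesis list. Krt8, a keratin, stood at 1.81 to 46.3 CPM in stroma and 64.4 to 311 in the other cells, a median ratio of -4.16, and its partner Krt18 had -3.75. Amh, the anti-Müllerian hormone gene, had -3.65 and its receptor gene Amhr2 -3.37. Hsd3b1, an enzyme of steroid synthesis, had -3.37, Serpine2, a protease inhibitor of granulosa cells, -2.46, and Wt1 -1.54. The granulosa list had a median ratio of -3.02 over 15 genes, the theca list of -2.87 over 7 and the steroidogenesis list of -1.80 over 13. Inha, the inhibin alpha chain, was lower in 12 of 12 libraries, yet still stood at 227 to 4115 CPM in stroma. The higher matrix and secreted genes, and the lower keratin and granulosa genes, can be read from the plot of log2 ratios by library.

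Promoters of the marked genes were read because these genes were all higher in the summed stroma cells of the same libraries. Whether they were high in the same single cells was not tested. RefSeq (build GRCm38.p6) gave a start site for 17 of the 24. In the 250 bases before it, searched on both strands, CCAAT stood in 3 of the 17 genes against 33.8% of all 32851 promoter windows, TATAAA in 3 against 12.4% and CAGCTG, an E-box, in 4 against 13.001%. A gene counted when any window listed for it matched, while the percentages are over single windows, so the 2 measures are unlike. The 3 printed below are examples with a match, picked after the matches were seen, from genes of 3 roles: a proteoglycan, a growth factor binding protein and a hyaluronan enzyme. Capitals mark the motif letters on either strand, and the last base lies just before the start site. They lie at chrX:73483351-73483600 on the plus strand (Bgn), chr15:102143936-102144185 on the plus strand (Igfbp6) and chr17:17855189-17855438 on the minus strand (Has1). Bgn holds CAGCTG, Igfbp6 holds TATAAA and CCAAT, the latter at 2 places of which the nearer starts 50 bases before the start site, and Has1 holds CAGCTG 242 and CCAAT 203 bases before it.
Bgn: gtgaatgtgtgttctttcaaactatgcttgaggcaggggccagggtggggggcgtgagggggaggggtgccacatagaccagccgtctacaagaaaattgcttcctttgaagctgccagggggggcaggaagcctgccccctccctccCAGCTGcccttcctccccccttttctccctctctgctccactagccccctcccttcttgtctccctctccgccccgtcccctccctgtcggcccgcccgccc
Igfbp6: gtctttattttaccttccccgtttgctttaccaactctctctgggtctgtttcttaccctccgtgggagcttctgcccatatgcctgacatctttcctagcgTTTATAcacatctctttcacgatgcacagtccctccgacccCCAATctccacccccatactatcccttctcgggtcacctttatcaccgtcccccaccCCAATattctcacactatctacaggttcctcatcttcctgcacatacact
Has1: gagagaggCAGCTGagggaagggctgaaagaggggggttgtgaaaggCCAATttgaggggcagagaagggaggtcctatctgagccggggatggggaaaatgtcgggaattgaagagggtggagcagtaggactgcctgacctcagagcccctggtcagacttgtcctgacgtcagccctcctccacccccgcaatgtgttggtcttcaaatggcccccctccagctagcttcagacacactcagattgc

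RNA content differed between stroma and other wild type cells in part. The median UMI number of stroma cells was a median of 1.49 times that of the other cells of the same library, and higher in 9 of 12 libraries. Genes per cell were higher in 11 of 12, by a median factor of 1.21. The ratio of endogenous to spike-in (ERCC) UMIs, a measure of RNA per cell, was higher in 8 of 12, with a median factor of 1.03. Mitochondrial transcripts took a smaller share in stroma in 12 of 12 libraries, at a median of 2.68% against 3.59%.

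The share of stroma cells was higher in wild type than in mutant libraries, but it followed the library numbers as much as the genotypes. Wild type libraries held a mean of 10.2% ± 9.25 (SD, n = 31), with a median of 8.62% and a range from 0 to 34.9%. The ob/ob libraries held 3.58% ± 4.31 (n = 31; median 2.35%, highest 16.3%) and the db/db libraries 1.36% ± 1.95 (n = 30; median 1.06%, highest 7.87%). Both mutant ranges lay within the wild type range. By permutation of libraries (100000 resamples, 2-sided, adjusted over 3 pairs), the ob/ob mean differed from wild type by -6.61 percentage points (adjusted p = 8.4e-04) and the db/db mean by -8.84 points (adjusted p = 6.0e-05; the unadjusted 2.0e-05 is the smallest these resamples can give). The db/db mean differed from ob/ob by -2.23 points (adjusted p = 0.0101).

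Within wild type, libraries 1 to 32 held 231 stroma cells among 1369 (16.9%), each with some, and libraries 40 to 55 held 30 among 1132 (2.65%), with none in 8 of 14. The mutant libraries were numbered in runs of 1 genotype. The first run, 10 db/db libraries from 82 to 91, held 2.80%, and the 14 ob/ob libraries after it held 0.575%. The next 14 db/db libraries held 0.324%, and the 11 ob/ob libraries after them 6.99%. The last 12 libraries mixed both mutants, and held 1.65% in db/db and 4.23% in ob/ob. Against the wild type libraries 40 to 55 alone, ob/ob lay 1.07 points higher (permutation adjusted p = 0.433 over 4 such tests) and db/db differed by -1.16 points (adjusted p = 0.252), so the ob/ob value had the opposite sign. Between the mutants, db/db lay 2.03 points higher over the first 24 mutant libraries (adjusted p = 0.103) and differed by -3.11 points over the last 12 (exact permutation, adjusted p = 0.252). Cells were picked by hand, so a share shows what was picked from an ovary; picking and the makeup of the tissue cannot be told apart.

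**Figure D1:**
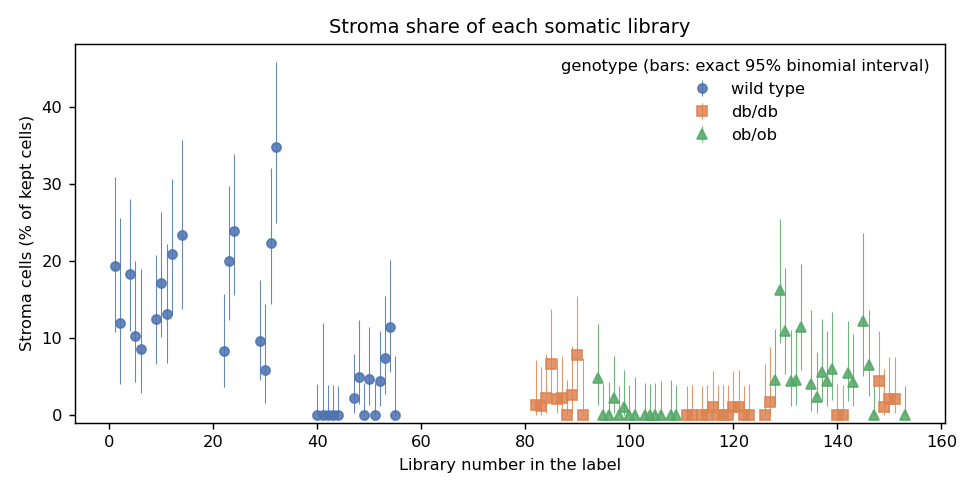
Stroma cells as a percentage of kept cells (vertical axis) by the library number in the label (horizontal axis), 1 point per somatic library coloured by genotype, with exact 95% binomial intervals that cover counting error only. Wild type libraries 1 to 32 lie between 5.88% and 34.9%, and wild type libraries 40 to 55 lie between 0 and 11.5%, among the mutant values.

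Genotypes were compared in libraries with at least 10 stroma cells, which 12 wild type, 3 ob/ob and no db/db libraries reached. The ob/ob libraries, replicates 16, 17 and 20, held 15, 10 and 11 stroma cells, and 11 of the 12 wild type libraries had numbers up to 32. Summed UMIs per library ran from 1104930 to 5620222 in wild type and were 1590638, 1299266 and 427967 in ob/ob. The edgeR quasi-likelihood test on these sums covered 10799 genes. At an adjusted p under 0.05 it called 329 (3.05%), of which 224 were lower in ob/ob (2.07% of those tested) and the rest higher (0.972%). Dcn, Lum, Mgp and Mfap4, which chose the cells, are 4 of the lower calls and count as no result. The libraries of the 2 genotypes did not overlap in 532 genes (4.93%), among them 260 of the 329. Of these calls 31.9% were higher in ob/ob. With DESeq2 size factors 51.4% of 259 calls were, so the split of directions depended on scaling, and that scaling moved the median log2 difference of all genes from -0.037 to 0.19. In the genotype comparison, CPM values of single genes in stroma cells follow TMM scaling. Sums of marker lists and all values of the other cells are plain CPM. The TMM factors of the stroma sums were 0.7062 to 1.099 in wild type and 1.14 to 1.297 in ob/ob.

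Markers of other cell types moved with genotype in the same summed cells. The granulosa list summed to 569.7 to 5485 CPM in the wild type stroma cells (median 1569) and to 9660.3, 8246 and 6627 CPM in ob/ob replicates 16, 17 and 20. All 3 ob/ob sums lay above all 12 wild type sums in plain CPM. The highest wild type sum was that of replicate 8. TMM factors were 0.8367 there and 1.227 in ob/ob replicate 20, and with them the granulosa ranges would overlap. Theca markers summed to 71.4 to 835 CPM in wild type and 2359 to 3084 in ob/ob, and luteal markers to 176 to 843 and 1722 to 2449. Both lists hold Hsd3b1 and Cyp11a1, so the theca and luteal sums count some of the same UMIs. Surface epithelium markers summed to 7.24 to 218 CPM in wild type and to 234, 1624 and 6005 in ob/ob. Endothelial markers (32.9 to 255 CPM in wild type, 300.2 to 345 in ob/ob), macrophage and leukocyte markers (0 to 152.05 and 154 to 243) and oocyte markers (7.62 to 262 and 394 to 528) were likewise higher in all 3 ob/ob libraries than in any of wild type, in plain CPM. With the TMM factors the surface epithelium, endothelial and macrophage ranges would overlap. The theca, luteal and oocyte ranges would stay apart. In the other cells of the same libraries granulosa markers summed to 6460.3 to 15131 CPM in wild type and 10966 to 13215 in ob/ob, where the ranges overlapped. Theca, luteal, surface epithelium and endothelial sums overlapped there too. Oocyte sums there were 25.8 to 179.3 CPM in wild type and 306.8 to 480.5 in ob/ob, with no overlap. Macrophage and leukocyte sums (1.23 to 58.1 and 69.6 to 126.8) did not overlap either. Smooth muscle and pericyte sums did not overlap there (85.3 to 648.8 and 927.6 to 1385.3). In stroma they did (651.2 to 2899.8 and 1483.8 to 2439.1). The higher marker sums in ob/ob stroma cells move with every ob/ob result that follows, and their part in the results was not tested. Fewer stroma cells in a pick and less stroma RNA per picked cell cannot be told apart in these sums.

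**Figure D2:**
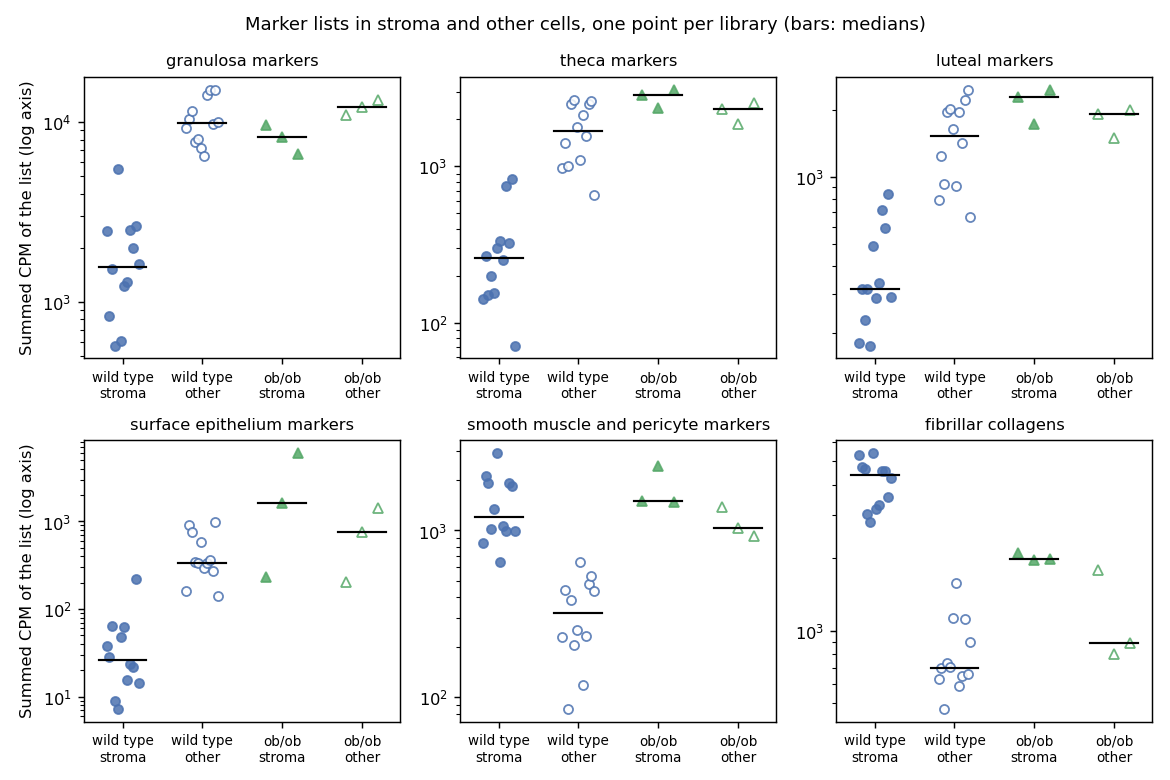
Summed CPM of 6 marker lists (log axis) in stroma cells and in the other cells, 1 point per library with bars at medians. The sums are plain CPM. Granulosa, theca and luteal sums of the 3 ob/ob stroma libraries lie above all 12 wild type stroma libraries, and their fibrillar collagen sums, 1958 to 2092, lie below the 2809 to 5389 of wild type. With TMM scaling the granulosa ranges would overlap.

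Of 7 fibrillar collagen genes tested in ob/ob stroma cells, 3 fell, Col1a1, Col3a1 and Col1a2, and 0 rose. The median log2 difference of the list was -1.22 against -0.037 for all genes, and -0.60 against 0.56 with limma. Col1a1 stood at 239.6, 344 and 384 CPM in ob/ob replicates 16, 17 and 20 and at 775 to 1876 in wild type, with a median of 1059. All ob/ob values lay below all wild type values, and the log2 difference was -1.88 ± 0.34 (SE; edgeR adjusted p = 8.1e-04). Col3a1, the chain of type III collagen, had 282, 443 and 179 CPM against 567 to 1377, a difference of -1.77 ± 0.32 (edgeR adjusted p = 9.6e-04). Col1a2 fell by 1.22 on the log2 scale, with 786, 769 and 816 CPM against 1161 to 2804 (edgeR adjusted p = 0.00820). Among other interstitial collagens 1 of 8 fell, Col6a1, with a difference of -1.81 (edgeR adjusted p = 0.00308). The calls of these collagens did not hold with every choice of cells. With stroma cells limited to those with 3 or more granulosa markers, in 7 wild type and 5 ob/ob libraries, Col1a1 differed by -1.14 (edgeR adjusted p = 0.0868), Col1a2 by -0.34 (0.781), Col6a1 by -1.12 (0.229) and Col3a1 by -1.56 (0.0154). With 5 cells per library as the minimum, Col3a1 differed by -0.55 (edgeR adjusted p = 0.296) and Col6a1 by -1.12 (0.0266). With limma Col1a2 differed by -0.60 (adjusted p = 0.0993).

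Matrix glycoproteins and their neighbours fell in part. Of 14 tested matrix glycoproteins 4 fell and 0 rose: Sparcl1, Igfbp7, Sparc and Has1. Sparcl1, a matricellular protein, had 189, 183 and 181 CPM in ob/ob against 527 to 2000.5 in wild type, with no overlap, and fell by 2.35 ± 0.38 on the log2 scale (edgeR adjusted p = 2.4e-04). Igfbp7 fell by 2.13 (edgeR adjusted p = 0.00460), but had a difference of -0.64 with 5 cells per library as the minimum (0.376). Sparc fell by 1.17 (0.00745), though it lost its call without ob/ob replicate 20 (0.0721), in cells with granulosa markers at -0.57 (0.569) and with limma at -0.56 (0.125). Has1 fell by 3.03 (edgeR adjusted p = 0.0402), but was not called without ob/ob replicate 16 (0.155), 17 (0.140) or 20 (0.0504), nor with 5 cells per library as the minimum, at -0.69 (0.676), or in cells with granulosa markers, at -2.62 (0.268). Of 7 small proteoglycans Bgn alone passed, with 207, 204 and 276 CPM against 333 to 1025 (-1.46, edgeR adjusted p = 0.0133), and it no longer did without ob/ob replicate 16 (0.0798) or 17 (0.0831), in cells with granulosa markers at -0.87 (0.3001), or with limma at -0.45 (0.431). Basement membrane genes had 2 falls of 14, Col4a2 and Lama2, and elastic fibre genes 1 of 14, Mfap2. Each of these 3 lost its call without at least 1 ob/ob library and with 5 cells per library as the minimum. Collagen processing enzymes had 0 calls of 13. Among 19 proteases and inhibitors 4 fell and 1 rose. Adamts1, a proteoglycan-cutting protease, fell by 2.11 (edgeR adjusted p = 0.00239), with 87.2, 120.7 and 106.1 CPM against 217 to 758, and the granulosa gene Serpine2 rose by 1.71 (0.00395). Adamts1 was at -1.25 (0.0657) with 5 cells per library as the minimum, and Serpine2 at 1.05 (0.0823) in cells with granulosa markers.

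General mesenchymal genes fell in 3 of 20 cases and rose in none. S100a6, a calcium-binding protein of fibroblasts, had 13.2, 10.9 and 3.86 CPM in ob/ob against 73.7 to 545 in wild type, and fell by 4.59 ± 0.73 on the log2 scale (edgeR adjusted p = 1.9e-04). Vim (vimentin, the filament of mesenchymal cells) had 227, 169.8 and 270.0 CPM against 378 to 1591 and fell by 2.07 (edgeR adjusted p = 0.00272). For both genes all 3 ob/ob libraries lay below the wild type range. Islr fell by 3.44, but was not called without ob/ob replicate 17 (edgeR adjusted p = 0.0617) or with 5 cells per library as the minimum, at -2.03 (0.0549), nor in cells with granulosa markers, at -1.61 (0.6005). Of 22 transcription factors of the ovarian stroma, 4 steroid receptors, 12 hedgehog genes and 17 genes of transforming growth factor and bone morphogenetic protein signalling, none passed at an adjusted p under 0.05 in edgeR. A list without a call is not shown to be unchanged in a design of 3 against 12 libraries.

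Mdk fell among the secreted factors, and 3 genes fell among those linked to interferon. Mdk had 49.99, 76.4 and 57.9 CPM in ob/ob against 316 to 993, and fell by 3.35 ± 0.43 on the log2 scale (edgeR adjusted p = 6.9e-06). It was the 1 called gene of 18 growth factors and chemokines. It also fell in the other cells of the libraries (edgeR adjusted p = 0.00893), from a mean of 154 to 48.5 in plain CPM. With 5 cells per library as the minimum its difference in stroma was -1.54 (edgeR adjusted p = 0.0112). Ifitm3 had 356, 341 and 494 CPM against 692 to 3638 and fell by 2.01 (edgeR adjusted p = 0.00218), and its relatives Ifitm2 and Ifitm1 fell by 1.61 and 2.14. Ifitm1 was not called without ob/ob replicate 16 (0.125) or 20 (0.172). Across 15 interferon genes 3 fell and 1, Ifit1, rose, and without ob/ob replicate 17 Ifit1 was not called (0.165). In cells with granulosa markers Ifitm2 was at -0.98 (edgeR adjusted p = 0.0976) and Ifitm1 at -1.81 (0.0740), and in cells with at least 2000 genes and 10000 UMIs Ifitm1 was at -1.48 (0.150). Ifitm2 and Ifitm1 fell in the other cells too (edgeR adjusted p = 0.00656 and 0.00213).

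The largest falls outside these lists included genes of stress and inflammation. Tnfaip6, which binds hyaluronan, had 4.41, 0 and 5.79 CPM in ob/ob against 14.2 to 455 in wild type, a difference of -5.44 ± 1.09 (edgeR adjusted p = 0.00277). Hmox1 (heme oxygenase) had 4.90, 10.2 and 1.93 CPM against 13.6 to 598 and fell by 4.63 (edgeR adjusted p = 0.00584; 0.0602 without ob/ob replicate 20). Both genes were lower in the other ob/ob cells too (edgeR adjusted p = 0.00484 and 0.0107). Wfdc1, a protease inhibitor, fell by 6.09, and the small heat shock gene Hspb8 had a difference of -5.12. Of 22 oxidative stress genes 4 fell and 0 rose, with Gstm1, a glutathione transferase, at 723, 491 and 696 CPM against 1087 to 2725 (-1.54, edgeR adjusted p = 0.00110). Of 30 nuclear oxidative phosphorylation genes 1 fell, Cox6c. Wfdc1, Gstm1 and Cox6c fell in the other cells as well (edgeR adjusted p = 0.0168, 0.00485 and 0.0149). With 5 cells per library as the minimum Tnfaip6 was at -1.92 (edgeR adjusted p = 0.179), Wfdc1 at -1.76 (0.121), Hspb8 at -2.29 (0.0988) and Gstm1 at -0.65 (0.0927), none of them called. In cells with granulosa markers Wfdc1 was at -2.77 (edgeR adjusted p = 0.148), Hspb8 at -1.73 (0.654) and Gstm1 at -0.41 (0.744), while Tnfaip6 kept its call at -5.38 (0.0247).

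Genes higher in ob/ob included most markers of the theca and the surface epithelium and some of granulosa cells. Of 7 theca markers 6 rose, with a list median of 3.10. Hsd3b1 had 927, 672 and 866 CPM in ob/ob against 22.4 to 319 in wild type, a difference of 2.99 ± 0.46 (edgeR adjusted p = 1.4e-04). Fabp3, a fatty acid binding protein, rose by 4.55 ± 0.75, with 100.96, 319 and 176 CPM against 0.398 to 36.4 (edgeR adjusted p = 3.1e-04). Aldh1a1, which makes retinoic acid, had 630.2, 597 and 745 CPM against 28.2 to 302 and rose by 2.30 (edgeR adjusted p = 0.00203). The ob/ob values of all 3 genes lay above every wild type value, and in cells with granulosa markers Hsd3b1 differed by 1.85 (0.0239). Cyp11a1 rose by 3.10, but was not called without ob/ob replicate 20 (edgeR adjusted p = 0.118) or with at least 2000 genes and 10000 UMIs per cell, at 2.65 (0.137), and Cyp17a1 by 4.38, with no call without replicate 16 (0.251) or 20 (0.0528).

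Of 10 surface epithelium markers 9 rose, and their levels differed between the 3 ob/ob libraries. Krt18 had 40.7, 394 and 3449 CPM in replicates 16, 17 and 20 against 0 to 108.8 in wild type, so replicate 16 lay within the wild type range. Its difference was 5.86 ± 0.78 (edgeR adjusted p = 1.5e-05), and 3.31 without replicate 20 (0.0996) and 3.06 with at least 2000 genes and 10000 UMIs per cell (0.0908). Msln (mesothelin) had 15.7, 73.7 and 324 CPM against 0 to 1.19, 308 UMIs against 7 in all, and Krt7 had 17.2, 62.8 and 96.4 against 0 to 0.836, 177 UMIs against 2. Both kept their calls without each ob/ob library. Of 14 granulosa markers 5 rose and 0 fell. Inha had 4378, 4838 and 3526 CPM against 249.6 to 4931 in wild type, an overlap, with a difference of 1.84 (edgeR adjusted p = 0.0150; 0.0620 without ob/ob replicate 17; 0.0876 with DESeq2). Smooth muscle and pericyte markers had 0 calls of 11.

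**Figure D3:**
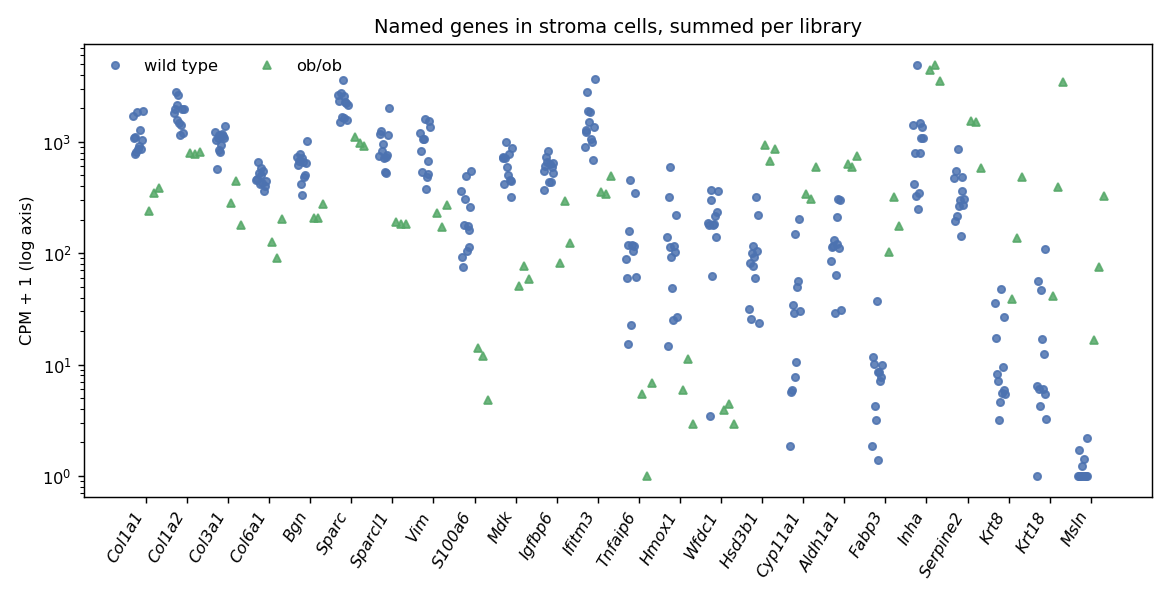
CPM plus 1 (log axis) of named genes in the summed stroma cells, 1 point per library, for 12 wild type and 3 ob/ob libraries. Col1a1, Sparcl1, Vim, S100a6 and Mdk of ob/ob lie below every wild type point, Hsd3b1, Fabp3 and Aldh1a1 lie above, and Krt18 of ob/ob spans 40.7 to 3449 CPM.

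The genes that chose the cells are given for ob/ob as a description of the choice, with no test. Dcn stood at 355, 458 and 474 CPM in ob/ob against 1395 to 3385 in wild type. Lum stood at 202, 177 and 212 against 734 to 1518, and Mgp at 378, 344 and 370.3 against 885 to 2017. Mfap4 stood at 63.2, 99.6 and 100.3 against 194 to 1069. Mfap5, with 117.1, 55.9 and 204 against 112.2 to 1113, and Serping1, with 131.3, 226 and 282 against 278 to 671, overlapped between the genotypes, and the other 4 did not. Of the 24 other genes that marked wild type stroma, 17 were called lower in ob/ob and 0 higher, with a median of -1.97. Of the 53 genes low in wild type stroma 49 were tested, 13 were called higher and 0 lower, with a median of 2.31. Both sets were picked in these wild type libraries, so the counts are no independent measure.

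In the other kept cells of the same 15 libraries, the same comparison called 338 of 12742 genes (2.65%), and 35.3% of the 329 stroma calls were called there in the same direction. The difference between the stroma and the other cells in their ob/ob response was tested in a fit with the library as a term, and 24 of 10799 genes passed (0.222%), 14 of them with a more positive response in stroma. Dcn, Lum and Mgp, which chose the cells, are 3 of the 24 and count as no result. Another 3 were among the other genes that marked wild type stroma, and 10 among those low in it. Their gap between stroma and other cells was picked in these wild type libraries, so their calls are no independent measure. Col1a1 was among these marked genes. In the other cells it had a mean of 143.7 in wild type and 182 in ob/ob, in plain CPM. The responses of Col1a1 differed by -1.93 (edgeR adjusted p = 0.0185). For Mdk (-1.38, edgeR adjusted p = 0.320), S100a6 (-3.32, 0.0709), Vim (-1.19, 0.288) and Ifitm3 (-0.74, 0.542) the difference did not pass.

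Lepr, the receptor of the hormone that ob/ob mice lack, was barely counted. It stood at 0 to 18.97 CPM in the wild type stroma libraries, with a median of 2.84, and at 0.980, 6.14 and 0 in ob/ob (edgeR adjusted p = 0.883). It reached 1 per 10000 in 2.30% of wild type stroma cells. Lep had 0 UMIs in the stroma cells of both genotypes. Of 6 measured genes of leptin signalling 0 were called.

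RNA content per stroma cell differed in 2 of 4 measures. Endogenous over ERCC UMIs had library medians of 10.9, 5.94 and 2.33 in ob/ob replicates 16, 17 and 20 against 1.21 to 2.20 in wild type. All 3 lay above the 12 wild type values (exact permutation test, 2-sided, adjusted p = 0.0176 over 4 measures). Mitochondrial transcripts took 6.16%, 3.15% and 4.04% against 2.24% to 3.20% (exact permutation adjusted p = 0.0176). Neither measure was particular to stroma, though the other cells were not tested. Their ERCC ratio was 5.45, 3.92 and 3.47 in ob/ob against 1.23 to 2.18 in wild type. Their mitochondrial share was 6.26%, 4.76% and 4.225% against 2.96% to 4.231%, with a slight overlap. UMIs per stroma cell were 73107, 92075 and 28605 against 61374.5 to 249986, and genes per stroma cell 5585, 4493 and 3313 against 2208 to 4502 (exact permutation adjusted p = 0.0659 for each). By library means in place of medians, genes per cell were 1482 higher in ob/ob (adjusted p = 0.0117). Without ob/ob replicate 16 or 20 the adjusted p of the ERCC ratio was 0.0879 or 0.0586, and that of the mitochondrial share was the same, in a design of 2 against 12 libraries.

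**Figure D4:**
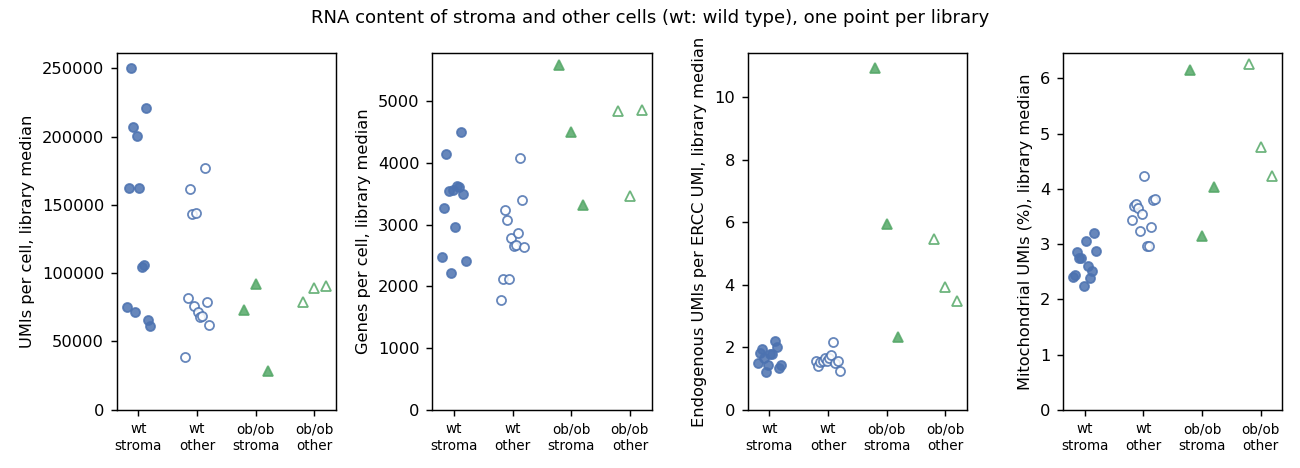
UMIs per cell, genes per cell, endogenous UMIs per ERCC UMI and percent mitochondrial UMIs (vertical axes) as library medians, for stroma (filled) and other cells (open) of 12 wild type and 3 ob/ob libraries. The ERCC ratio of all 3 ob/ob stroma libraries, 2.33 to 10.9, lies above that of wild type, and so does that of the other ob/ob cells.

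No db/db library held 10 stroma cells, so db/db was compared only with a minimum of 5, which replicates 4 and 9 reached with 6 and 7 cells, against 18 wild type and 8 ob/ob libraries. The db/db stroma cells had Dcn at 512 and 1987 CPM, Lum at 116.7 and 969, and Mgp at 803 and 862. Col1a1 stood at 333 and 531 CPM against 528 to 2029 in wild type, a log2 difference of -1.35 (edgeR adjusted p = 0.432). Against wild type 84 of 11732 genes passed (0.716%), 75 higher and 9 lower. Without replicate 4 the share that passed was 0.358%, and without replicate 9 it was 1.14%. Among the 9, Eif4a1, an RNA helicase of translation, had 78.4 and 89.4 CPM against 444 to 1242 (-3.19), Cd81, a membrane tetraspanin, had 513 and 741 against 1231 to 3553 (-1.61), and mt-Nd3, a mitochondrial subunit of complex I, had 3.73 and 0 against 178 to 509. All 3 lay below every wild type library. Ooep and H1foo, genes of the oocyte picked after their values were seen, had 112.9 and 139.7 and 36.4 and 307 CPM against 0 to 21.3 and 0 to 35.1. At least 3 oocyte markers were held by 30.6% of the 36 db/db stroma cells, 14.7% of ob/ob and 5.36% of wild type stroma cells, and by 11.8% of the other db/db cells. Against ob/ob 6 genes passed (0.0511%): mt-Nd3, Eif4a1 and Rpl21 were lower in db/db and Hars, Hspa1a and Pim1 higher, and 0.0152% or 0.0227% passed without replicate 4 or 9.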

How the data were processed

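The authors deposited 1 table of UMI counts, not normalized, with 24579 rows and 13254 cell columns. Per the submitters' processing notes the genome build was mm9, while the aligner, counter and gene models were not given in the sources used here. All 8465 columns of the 92 somatic libraries were read and 4789 columns of 61 libraries were not used. ERCC (92) and RGC (3) rows were left out of totals, and 37 rows named by transcript were matched to mitochondrial genes. No doublet caller was run, since cells were picked singly by hand, and no 2 stroma cells had identical counts.

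Stroma cells against other cells were described by CPM summed per library, as log2 of CPM plus 1, with a marked gene 2-fold apart in every library and at 20 CPM or more. Genotypes were tested with edgeR 4.0.16 in R 4.3.3 (filterByExpr, TMM, quasi-likelihood, Benjamini-Hochberg over all genes, threshold 0.05). Shares and RNA content were tested by permutation of libraries in Python 3.11.15 with scipy 1.17.1. DESeq2 1.42.0 and limma 3.58.1 served as alternatives. Intervals cover counting error only. The edgeR steps were tested on simulated counts of 10424 genes. Most genes simulated with a change were not called there, so a gene without a call may still differ.

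Named genes were the 20 highest and 8 lowest marked genes, up to 4 marked or called members of each of 37 lists, the 8 largest rises and falls among called genes at 20 CPM or more, the 6 genes of the rule, Lep and Lepr. Not every gene is printed. Members, lists and tests were chosen with earlier results of these data known.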

Additional observations from a re-analysis of the deposited data

Results flagged for a closer look

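For 10 named genes, the 6 genes of the rule left aside, the ob/ob difference in stroma cells was itself different from that in the other cells of the same 15 libraries, at an edgeR adjusted p under 0.05 for the interaction. The log2 difference between the responses was 3.21 for the steroid enzyme gene Hsd3b1 (edgeR adjusted p = 1.2e-04). Its mean was 103.2 CPM in wild type and 822 in ob/ob stroma cells, after TMM scaling. In the other cells its mean was 899 and 1137 in plain CPM. The difference between the responses was 4.10 for Fabp3 and 3.74 for Cyp11a1, both theca genes, with edgeR adjusted p of 0.0380 and 0.04996. For the keratins Krt18 and Krt8 it was 4.82 and 4.70 (5.6e-04 and 0.0090). For the granulosa genes Inha and Serpine2 it was 2.48 and 1.74 (0.0089 and 0.0438), and for the cathepsin gene Ctsh 5.65 (0.0438). The collagen genes Col1a1 and Col1a2 had responses that differed by -1.93 and -1.69 (0.0185 and 0.0380). Hsd3b1, Fabp3, Krt18, Krt8, Serpine2, Ctsh and Col1a1 were picked as marked genes by their gap between stroma and other cells in these wild type libraries. Their interaction p-values are therefore no independent measure. The sums of granulosa, theca, luteal, surface epithelium, endothelial, macrophage and oocyte markers in the ob/ob stroma cells move with these results, and their part was not tested.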

How the results depend on the processing

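The shares kept their direction and call under the other planned rules and cell filters; taking all somatic libraries changed nothing, since each already held at least 20 kept cells. By library number, chosen after seeing the data, ob/ob minus wild type turned to 1.07 points against wild type libraries 40 to 55, where db/db minus wild type was -1.16. Db/db minus ob/ob was 2.03 over the first 24 mutant libraries and -3.11 over the last 12. For stroma against other cells, 0.446% of genes were higher and 0.965% lower in every one of 12 libraries. These became 0.0186% and 0.182% at 4-fold, 9.89% and 13.4% with 5 rule genes (2 libraries), and 0.202% and 0.399% after thinning to 3000 UMIs. The 2 alternatives chosen after seeing the data gave 0.154% and 1.90% (at least 5 stroma cells without markers of another type) and 0.0925% and 0.454% (at least 5 stroma cells).

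For ob/ob against wild type the 329 calls (31.9% higher) became 259 with DESeq2 size factors (51.4% higher), 494 with the DESeq2 Wald test (176 higher, 35.6%), 493 with limma (282 higher, 57.2%), 1203 with no low count filter (800 higher, 66.5%), 704 with at least 5 stroma cells (417 higher, 59.2%) and 244 with the stricter cell filter. In cells with 3 or more granulosa markers, chosen after seeing the data, 92 were called (29 higher), 75 of them shared. Leaving out 1 ob/ob library left 172 to 225 calls, with 70 to 88 higher, and leaving out 1 wild type library 284 to 392. Over the named genes 1335 values kept direction and call, 162 lost the call in 50 genes, 7 (Mfap5) gained it, and Dnajc4 alone reversed, at 0.88 in cells with granulosa markers. RNA content by library means gave 1482 more genes per cell. Without 1 ob/ob library the ERCC ratio differed by 2.46 to 6.76, the mitochondrial share by 0.922 to 2.43 points. Without 1 db/db library the 0.716% called against wild type became 0.358% or 1.14%, and the 0.0511% against ob/ob 0.0152% or 0.0227%.

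Not run for genotypes, for want of libraries, were at least 20 stroma cells, 5 of 6 rule genes, cells without markers of another type and the library number as a covariate; only 1 library allowed that marker filter in wild type. Fitting only the 2 genotypes equals the fit given. No paired analysis was possible because replicate numbers follow the order of accession and pair no libraries. The minimum of 10 stroma cells per library limits the ob/ob test to 3 libraries of 10 to 15 cells.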

Other observations

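Immediate early genes, which respond within minutes to stress such as tissue digestion, were abundant in stroma cells of both genotypes. The list summed to 3245 to 17641 CPM in the 12 wild type libraries (median 10519) and 11101 to 15869.7 in the 3 ob/ob libraries, within the wild type range. Cell cycle genes summed to 631 to 4508 CPM in wild type and 1960.4 to 2437 in ob/ob stroma. Neither list had a called gene in the ob/ob comparison, of 16 and 22 tested. Mki67, a marker of cycling cells, reached 1 per 10000 in 9.58% of wild type stroma cells.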
